A study of Mus musculus with 10 samples.

Results

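The genes described here are 35 genes of glycolysis and of the response to low oxygen, chosen as a named list: transporters of glucose and lactate, the enzymes of the glycolytic chain, kinases that regulate it, and genes induced by hypoxia. Each was read from a probe set annotated to that gene alone, and the brightest one was used where a gene had several. By this rule 32 of the 35 were measured, among 19937 genes in all. Gapdh had probe sets that name several genes and was not used, and Gpi1 and Eno1 were not measured under the rule. Of the 32, 5 had a mean below 7.23 log2 units, the median of all gene means, and are called dim here (Slc2a3, Pfkfb4, Eno2, Ldhb and Egln3). No filter on low values was applied.

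The samples are J558 cells, an established mouse myeloma line of plasma-cell type, profiled with Affymetrix gene arrays. There were 4 arrays of cells given Pax5 G183S, 3 of cells given Pax5 WT and 3 of cells given the empty vector. Pax5 is the transcription factor that maintains B-cell identity and is normally off in plasma cells, and G183S replaces a glycine of its octapeptide motif with serine. The retroviral vector MSCV-PIG, with puromycin resistance and GFP, was carried by the cells of all 3 groups, the empty-vector controls included. Puromycin selection lasted 5 to 7 days and was followed by a sort for GFP and IgM, so each group holds cells that passed that sort, and Pax5 is driven by a viral promoter in a line that has already become plasma-cell-like. The labels call the replicates biological, and the p-values below measure the spread between these arrays.

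Glycolysis breaks glucose down to pyruvate, which is either reduced to lactate and exported or passed to the mitochondria. When oxygen is low, the transcription factor HIF-1 accumulates because its alpha subunit Hif1a is no longer marked for destruction by the prolyl hydroxylases Egln1 and Egln3, and it switches on glucose transporters, most glycolytic enzymes and genes such as Vegfa and Bnip3. HIF binds the short core ACGTG or GCGTG in DNA. In precursor-B leukaemia cells, Pax5 has been described as restraining glucose uptake.

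Promoters are shown for the members whose Pax5 arrays lay beyond all empty-vector arrays in both comparisons and which have 1 promoter in the RefSeq table (Slc16a1, Tpi1 and Pfkfb4), and for Higd1a, whose Pax5 G183S and Pax5 WT arrays did not overlap. Each is the stretch of 250 bases before the transcription start, in GRCm38.p6, 5′ to 3′ on the gene's strand. Capitals mark ACGTG or GCGTG on either strand.
Slc16a1, chr3:104638414-104638663, plus strand: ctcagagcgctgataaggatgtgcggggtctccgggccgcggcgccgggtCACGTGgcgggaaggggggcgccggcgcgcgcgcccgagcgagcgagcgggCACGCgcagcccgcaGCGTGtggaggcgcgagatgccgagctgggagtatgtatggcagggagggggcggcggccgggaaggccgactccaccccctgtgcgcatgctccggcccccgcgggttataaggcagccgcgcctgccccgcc
Tpi1, chr6:124814159-124814408, minus strand: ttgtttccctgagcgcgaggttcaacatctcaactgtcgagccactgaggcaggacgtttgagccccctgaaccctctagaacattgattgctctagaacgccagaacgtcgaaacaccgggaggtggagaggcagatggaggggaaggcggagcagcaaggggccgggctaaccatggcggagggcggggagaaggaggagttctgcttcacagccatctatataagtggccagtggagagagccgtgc
Pfkfb4, chr9:108991652-108991901, plus strand: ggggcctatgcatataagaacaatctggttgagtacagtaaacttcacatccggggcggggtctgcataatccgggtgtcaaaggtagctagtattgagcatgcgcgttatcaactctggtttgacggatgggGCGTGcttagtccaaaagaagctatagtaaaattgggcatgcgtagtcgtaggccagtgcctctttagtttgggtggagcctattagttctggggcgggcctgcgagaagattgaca
Higd1a, chr9:121857797-121858046, minus strand: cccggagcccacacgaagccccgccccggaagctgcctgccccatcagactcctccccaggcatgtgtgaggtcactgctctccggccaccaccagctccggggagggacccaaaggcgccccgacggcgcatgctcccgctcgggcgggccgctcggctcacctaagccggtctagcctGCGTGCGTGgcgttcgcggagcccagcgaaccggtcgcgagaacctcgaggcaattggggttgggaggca
The Slc16a1 window held 4 matches, 2 of them the overlapping strands of 1 CACGTG, the Higd1a window 2, the Pfkfb4 window 1 and the Tpi1 window 0. Windows were available for 32 of the 35 listed genes, which are not the same as the 32 measured members. They include the unmeasured Gpi1, Gapdh and Eno1, while Slc2a3, Bnip3l and Ndrg1 had no window. Over the 46 windows of these genes, 80.4% held ACGTG or GCGTG on either strand, against 38.6% of all 32851 windows of that length. ACGTG alone was in 47.8% against 16.6%, and CACGTG, which contains it, in 13.0% against 6.02%. The windows of the listed genes were also richer in G and C, with a median of 62.2% against 52.4%, and the part of base composition in the shares was not tested. A match is a run of letters and not a measured binding site.

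The vector check held in every array. Pax5 (probe set 10512669) read 10.22, 10.36, 9.38 and 9.96 log2 units with Pax5 G183S, 10.67, 10.09 and 10.05 with Pax5 WT, and 7.10, 6.84 and 7.01 with empty vector. Array medians were 6.81 to 6.94 log2 units. Correlations across genes between replicates were 0.985 to 0.988 for Pax5 G183S replicate 1 with the others of its group and 0.994 to 0.997 among those others. That array correlated more closely with Pax5 WT replicates 1 and 2 (0.9938 and 0.9953), and Pax5 WT replicate 3 more closely with Pax5 G183S replicates 2 and 4 (0.9939 and 0.9934) than with Pax5 WT replicate 1 (0.9867). With Pax5 WT replicate 2, Pax5 WT replicate 3 correlated at 0.9935. Some arrays thus had their closest match in the other Pax5 group, which bears on every value for Pax5 G183S against Pax5 WT. Without Pax5 G183S replicate 1 that difference was 0.88 for Ndrg1 (adjusted p = 0.218), -1.17 for Pdk3 (adjusted p = 0.0584) and 0.41 for Hif1a (adjusted p = 0.142). Without Pax5 WT replicate 3 it was 0.97 (adjusted p = 0.397), -1.27 (adjusted p = 0.292) and 0.39 (adjusted p = 0.449) for the same genes, against 0.42, -0.89 and 0.22 with all arrays. All 6 measured plasma-cell markers were above 7.23 log2 units in at least 1 array, as were 3 of the 5 measured B-cell markers on every array: Ms4a1 at 9.30 to 12.60, Cd79b at 11.90 to 12.84 and Cd22 at 8.51 to 9.30. The other B-cell markers, Cd79a and Ptprc, reached 5.53 and 6.67 at most. Ms4a1 rose by 2.27 ± 0.30 log2 units with Pax5 G183S (SE, limma adjusted p = 0.0171) and by 2.43 ± 0.33 with Pax5 WT (adjusted p = 0.0126) against empty vector. No other B-cell marker passed. In the same order of comparisons Cd79b differed by -0.25 (adjusted p = 0.678) and -0.43 (adjusted p = 0.283), and Cd22 by 0.05 and 0.01. The low Cd79a differed by 0.19 and 0.30 and Ptprc by 0.07 and 0.24. The myeloid markers Lyz2, Csf1r, Itgam and Cd14 and the T-cell markers Cd3e, Cd3d, Cd3g, Cd8a and Cd2 stayed below 7.23 in every array, while Cd4, Adgre1 and Mpo reached 9.29, 7.56 and 7.99 at most. The low Cd3g passed against empty vector, at -1.15 (limma adjusted p = 0.0171) with Pax5 G183S and -1.09 (adjusted p = 0.0172) with Pax5 WT. Of the stromal markers, Col1a1 read 7.50 to 7.79, and Col1a2 and Col3a1 reached 7.48 and 7.44 at most. Pdgfra, Pdgfrb, Thy1 and the erythroid markers Klf1, Epor and Alas2 stayed below 7.23. In bulk RNA, fewer cells with a transcript and less transcript per cell cannot be told apart.

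**Figure D1:**
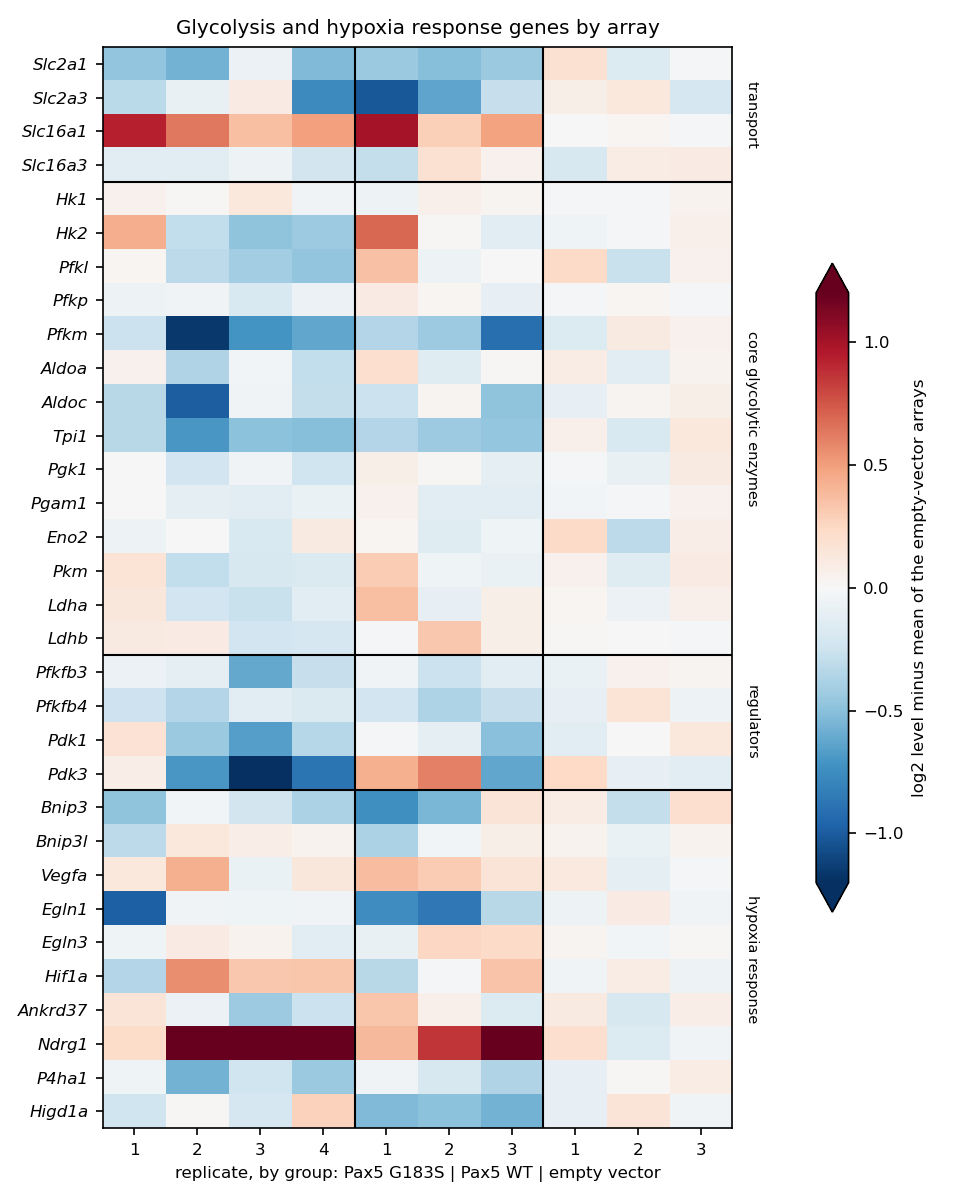
Log2 level of each of the 32 measured members on every array, as the difference from the mean of the empty-vector arrays, with genes grouped by role and the Pax5 G183S arrays left, then Pax5 WT, then empty vector. Ndrg1 differs most between arrays of 1 group, and Tpi1 is below every empty-vector array on all 7 Pax5 arrays.

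No member passed limma's adjusted p of 0.05 in any comparison, so the values below describe sizes and spreads. Against empty vector, 0 of 32 members passed with Pax5 G183S (0.311% of all genes did) and 0 of 32 with Pax5 WT (1.88% of all genes). Between Pax5 G183S and Pax5 WT 0 of 32 passed, as did 0 of 19937 genes (0%). At an unadjusted p under 0.05 there were 7 members for Pax5 G183S against empty vector (21.9%, with 11.3% of all genes), 9 for Pax5 WT against empty vector (28.1%, with 15.9%) and 3 for Pax5 G183S against Pax5 WT (9.38%, with 9.48%). These are descriptions of a chosen list and carry no test. Adjusted p-values are limma's throughout, and 1 log2 unit is a 2-fold difference. Both comparisons with empty vector share those 3 arrays, so their values are set side by side and are not independent.

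The glucose transporter Slc2a1 (GLUT1), the main carrier in most cells, averaged lower with both Pax5 proteins. It read 11.35, 11.25, 11.75 and 11.29 log2 units with Pax5 G183S, 11.37, 11.31 and 11.37 with Pax5 WT, and 11.99, 11.66 and 11.80 with empty vector. Pax5 G183S replicate 3 was the array that reached into the empty-vector range, and all 3 Pax5 WT arrays lay below it. The differences from empty vector were -0.41 ± 0.12 (SE, adjusted p = 0.195) with Pax5 G183S and -0.47 ± 0.13 (adjusted p = 0.111) with Pax5 WT. Without Pax5 G183S replicate 3 both passed, at -0.52 (adjusted p = 0.039) and -0.47 (adjusted p = 0.0326). Leaving out each array in turn gave an adjusted p of 0.039 to 0.497 with Pax5 G183S and 0.0326 to 0.28 with Pax5 WT. The dim high-affinity glucose transporter Slc2a3 (GLUT3) read 6.88, 7.11, 7.30 and 6.44 with Pax5 G183S, 6.18, 6.57 and 6.92 with Pax5 WT, and 7.27, 7.33 and 7.00 with empty vector. Its Pax5 WT arrays were all lower than the empty-vector arrays, by -0.64 ± 0.23 (SE, adjusted p = 0.206).

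Slc16a1 (MCT1), which moves lactate and other monocarboxylates across the membrane, averaged higher with both Pax5 proteins. It read 10.89, 10.59, 10.32 and 10.45 log2 units with Pax5 G183S, 10.96, 10.25 and 10.44 with Pax5 WT, and 9.96, 9.97 and 9.94 with empty vector. Every Pax5 array was above every empty-vector array, and the empty-vector arrays had an SD of 0.02. The differences were 0.60 ± 0.17 (SE, adjusted p = 0.166) and 0.59 ± 0.18 (adjusted p = 0.138), and between the Pax5 proteins 0.01 ± 0.17 with a 95% interval of -0.37 to 0.39. The lactate exporter Slc16a3 (MCT4) read 7.31 ± 0.07 log2 units with Pax5 G183S (SD, n = 4), 7.42 ± 0.24 with Pax5 WT (SD, n = 3) and 7.45 ± 0.17 with empty vector (SD, n = 3), and all groups overlapped.

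Among the 14 measured core enzymes, Tpi1, which interconverts the triose phosphates made by aldolase, had the smallest adjusted p in both comparisons with empty vector. It read 11.58, 11.20, 11.42 and 11.39 log2 units with Pax5 G183S, 11.55, 11.47 and 11.45 with Pax5 WT, and 11.96, 11.72 and 12.03 with empty vector. All 7 Pax5 arrays were below all 3 empty-vector arrays. The differences were -0.51 ± 0.10 (SE, adjusted p = 0.0754) with Pax5 G183S and -0.42 ± 0.11 (adjusted p = 0.0886) with Pax5 WT. Without Pax5 G183S replicate 1 both passed, at -0.57 (adjusted p = 0.0295) and -0.42 (adjusted p = 0.04). Over all fits that left out an array the adjusted p was 0.0295 to 0.335 with Pax5 G183S and 0.04 to 0.268 with Pax5 WT.

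Pfkm, the muscle-type subunit of phosphofructokinase, the rate-setting step of the chain, averaged lower with both Pax5 proteins. It read 9.24, 8.34, 8.78 and 8.88 log2 units with Pax5 G183S, 9.15, 9.06 and 8.60 with Pax5 WT, and 9.34, 9.61 and 9.55 with empty vector. No Pax5 array reached the empty-vector range. The differences were -0.69 ± 0.20 (SE, adjusted p = 0.176) and -0.56 ± 0.21 (adjusted p = 0.23). The other phosphofructokinase subunits differed less: Pfkp read 11.44 ± 0.06, 11.54 ± 0.10 and 11.53 ± 0.01 log2 units and Pfkl 9.20 ± 0.22, 9.58 ± 0.22 and 9.49 ± 0.25 with Pax5 G183S (n = 4), Pax5 WT (n = 3) and empty vector (n = 3), all ± SD. Every Pfkp array with Pax5 G183S was below the empty-vector arrays, although the mean difference was -0.09 ± 0.06 (SE, adjusted p = 0.713).

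Hexokinase 2 (Hk2), which traps glucose in the cell as glucose 6-phosphate, varied more within groups than between them. It read 8.86, 8.11, 7.94 and 7.98 log2 units with Pax5 G183S, 9.11, 8.43 and 8.28 with Pax5 WT, and 8.37, 8.41 and 8.48 with empty vector. Replicate 1 was the highest array in each Pax5 group. Hexokinase 1 (Hk1) read 13.30 to 13.48 on its brightest probe set, which cites a single accession that all 15 probe sets annotated to both Hk1 and Rpl17 also cite. On the Hk1 probe set that cites RefSeq transcripts, a choice made after the data were seen, the values were 8.41, 8.76, 8.83 and 8.75 with Pax5 G183S, 8.48, 8.50 and 8.56 with Pax5 WT, and 8.81, 8.89 and 8.92 with empty vector. There the Pax5 WT arrays were all below the empty-vector arrays, by -0.36 (adjusted p = 0.114), and the Pax5 G183S difference was -0.19 (adjusted p = 0.522).

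The remaining core enzymes lay close together. The aldolase Aldoa, the ATP-generating kinase Pgk1, the mutase Pgam1, the pyruvate kinase Pkm and the lactate dehydrogenase Ldha had means of 11.64 to 12.64 log2 units with Pax5 G183S, 11.82 to 12.88 with Pax5 WT and 11.77 to 12.76 with empty vector. None of their groups was fully separated, and their differences from empty vector were -0.16 to -0.08 with Pax5 G183S and -0.08 to 0.11 with Pax5 WT. Aldoc, a second aldolase, read 7.42 ± 0.41 log2 units with Pax5 G183S (SD, n = 4), 7.60 ± 0.26 with Pax5 WT (SD, n = 3) and 7.84 ± 0.09 with empty vector (SD, n = 3), with overlap. Eno2 and Ldhb, an enolase and the other lactate dehydrogenase subunit, were dim in all groups, at 6.16 log2 units and below on average.

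**Figure D2:**
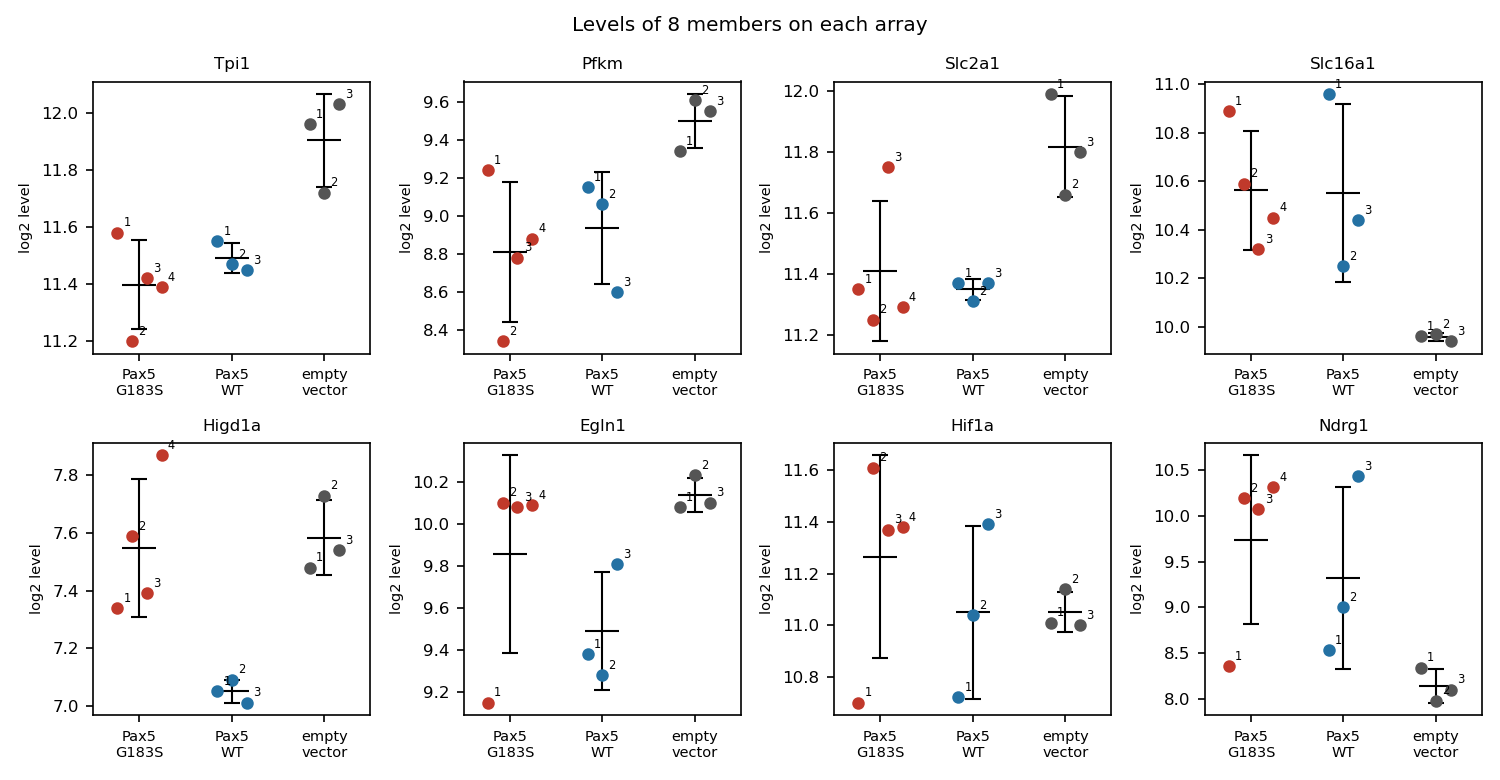
Log2 levels of selected members on every array, with Pax5 G183S left, Pax5 WT in the middle and empty vector right; each numbered point is 1 array and the bars are the group mean ± SD. Slc16a1 with Pax5 lies above and Tpi1 below the empty-vector arrays, while Ndrg1 and Egln1 with Pax5 G183S have 1 array, replicate 1, far from the other 3.

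The regulators set how much flux goes through the chain and how much pyruvate enters the mitochondria. Pfkfb4, a dim enzyme that makes and removes the phosphofructokinase activator fructose 2,6-bisphosphate, read 7.14, 7.04, 7.26 and 7.23 log2 units with Pax5 G183S, 7.17, 7.02 and 7.11 with Pax5 WT, and 7.29, 7.55 and 7.34 with empty vector. All 7 Pax5 arrays were below the empty-vector arrays, with differences of -0.22 ± 0.08 (SE, adjusted p = 0.321) and -0.29 ± 0.09 (adjusted p = 0.136). The related Pfkfb3 differed by -0.26 ± 0.12 with Pax5 G183S (adjusted p = 0.465) and -0.15 ± 0.13 with Pax5 WT (adjusted p = 0.654).

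The pyruvate dehydrogenase kinases Pdk1 and Pdk3 shut pyruvate out of the mitochondria. Pdk3 read 9.26, 8.48, 7.68 and 8.30 log2 units with Pax5 G183S, 9.61, 9.78 and 8.56 with Pax5 WT, and 9.42, 9.08 and 9.04 with empty vector. Pax5 G183S replicates 2, 3 and 4 and Pax5 WT replicate 3 were low, and Pax5 G183S replicate 1 lay with the empty-vector arrays. The difference was -0.75 ± 0.37 (SE, adjusted p = 0.494) for Pax5 G183S against empty vector, 0.14 ± 0.39 (adjusted p = 0.907) for Pax5 WT against empty vector and -0.89 ± 0.37 (adjusted p = 0.508) for Pax5 G183S against Pax5 WT. Pdk1 had -0.32 ± 0.18 with Pax5 G183S and -0.22 ± 0.20 with Pax5 WT against empty vector, neither past the test.

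Of the 10 hypoxia response members, Ndrg1, a stress-induced gene linked to growth arrest and differentiation, differed most in size. It read 8.36, 10.20, 10.08 and 10.32 log2 units with Pax5 G183S, 8.53, 9.00 and 10.44 with Pax5 WT, and 8.34, 7.98 and 8.10 with empty vector. All 7 Pax5 arrays were above the empty-vector arrays, but Pax5 G183S replicate 1 and Pax5 WT replicate 1 only slightly. The differences were 1.60 ± 0.52 (SE, adjusted p = 0.241) and 1.18 ± 0.56 (adjusted p = 0.343). Without Pax5 G183S replicate 1 the first was 2.06 (adjusted p = 0.0384). Leaving out each array in turn gave that difference an adjusted p of 0.0384 to 0.587. The within-group SD of Ndrg1, 0.81, was at the 99.7th percentile of all genes.

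The hydroxylase Egln1, the main enzyme that marks HIF for destruction, also had Pax5 G183S replicate 1 apart from its group. It read 9.15, 10.10, 10.08 and 10.09 log2 units with Pax5 G183S, 9.38, 9.28 and 9.81 with Pax5 WT, and 10.08, 10.23 and 10.10 with empty vector. The Pax5 WT arrays were all below the empty-vector arrays, by -0.65 ± 0.24 (SE, adjusted p = 0.228), and 3 of the 4 Pax5 G183S arrays lay near the empty-vector level. Without Pax5 G183S replicate 1 the Pax5 WT difference passed at an unchanged size (-0.65, adjusted p = 0.0212), and Pax5 G183S was above Pax5 WT by 0.60 (adjusted p = 0.0295). Over all fits that left out an array these adjusted p-values were 0.0212 to 0.481 and 0.0295 to 0.866. Egln3, the hypoxia-inducible hydroxylase, was dim, at 5.79, 5.93 and 5.80 log2 units on average with Pax5 G183S, Pax5 WT and empty vector.

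Hif1a itself read 10.70, 11.61, 11.37 and 11.38 log2 units with Pax5 G183S, 10.72, 11.04 and 11.39 with Pax5 WT, and 11.01, 11.14 and 11.00 with empty vector. Replicate 1 was the lowest array of each Pax5 group and lay below the empty-vector arrays, while 3 Pax5 G183S arrays lay above them. The differences were 0.22 ± 0.21 (SE, adjusted p = 0.814) and -0.00 ± 0.22 (adjusted p = 0.996). Hif1a is regulated mainly through its protein, which was not measured.

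Higd1a, a mitochondrial inner-membrane protein induced by hypoxia, was the only measured member whose Pax5 G183S and Pax5 WT arrays did not overlap. It read 7.34, 7.59, 7.39 and 7.87 log2 units with Pax5 G183S, 7.05, 7.09 and 7.01 with Pax5 WT, and 7.48, 7.73 and 7.54 with empty vector. The Pax5 WT arrays were below all others, and the Pax5 G183S arrays overlapped the empty-vector arrays. The difference was -0.04 ± 0.12 (SE, adjusted p = 0.968) for Pax5 G183S and -0.53 ± 0.13 (adjusted p = 0.0752) for Pax5 WT against empty vector, and 0.49 ± 0.12 (adjusted p = 0.484) for Pax5 G183S against Pax5 WT. Without Pax5 G183S replicate 1 the last was 0.56 and passed (adjusted p = 0.0306). Leaving out each array in turn gave the difference between the Pax5 proteins an adjusted p of 0.0306 to 0.845. The Pax5 WT difference from empty vector, -0.53, passed without Pax5 G183S replicate 1 (adjusted p = 0.0339) or 4 (adjusted p = 0.0395), with only those groups fitted (adjusted p = 0.0283) and with array weights (-0.51, adjusted p = 0.0113). Over all fits that left out an array its adjusted p was 0.0339 to 0.274. A second Higd1a probe set read 6.87, 7.06, 7.12 and 7.37 with Pax5 G183S, 6.79, 7.11 and 7.05 with Pax5 WT, and 7.25, 7.61 and 7.06 with empty vector. There the Pax5 proteins overlapped, and each of them also overlapped the empty-vector arrays.

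Vegfa, the angiogenic growth factor induced by HIF, read 10.71, 11.00, 10.50 and 10.71 log2 units with Pax5 G183S, 10.94, 10.88 and 10.73 with Pax5 WT, and 10.69, 10.47 and 10.57 with empty vector. Only the Pax5 WT arrays lay wholly above the empty-vector arrays, by 0.28 ± 0.12 (SE, adjusted p = 0.304). P4ha1, a collagen prolyl hydroxylase subunit, read 10.59, 10.07, 10.40 and 10.19 with Pax5 G183S, 10.60, 10.46 and 10.28 with Pax5 WT, and 10.54, 10.66 and 10.73 with empty vector. Its differences were -0.33 ± 0.13 (SE, adjusted p = 0.334) and -0.20 ± 0.13 (adjusted p = 0.531). On the probe sets used, the mitophagy receptors Bnip3 and Bnip3l and the ankyrin-repeat gene Ankrd37 had overlapping groups in every comparison. A second Bnip3 probe set read 7.59, 7.75, 7.55 and 7.59 with Pax5 G183S. It read 7.35, 7.44 and 8.12 with Pax5 WT, and 8.02, 7.81 and 8.09 with empty vector. There every Pax5 G183S array was below the empty-vector arrays, and the Pax5 WT arrays overlapped both other groups.

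**Figure D3:**
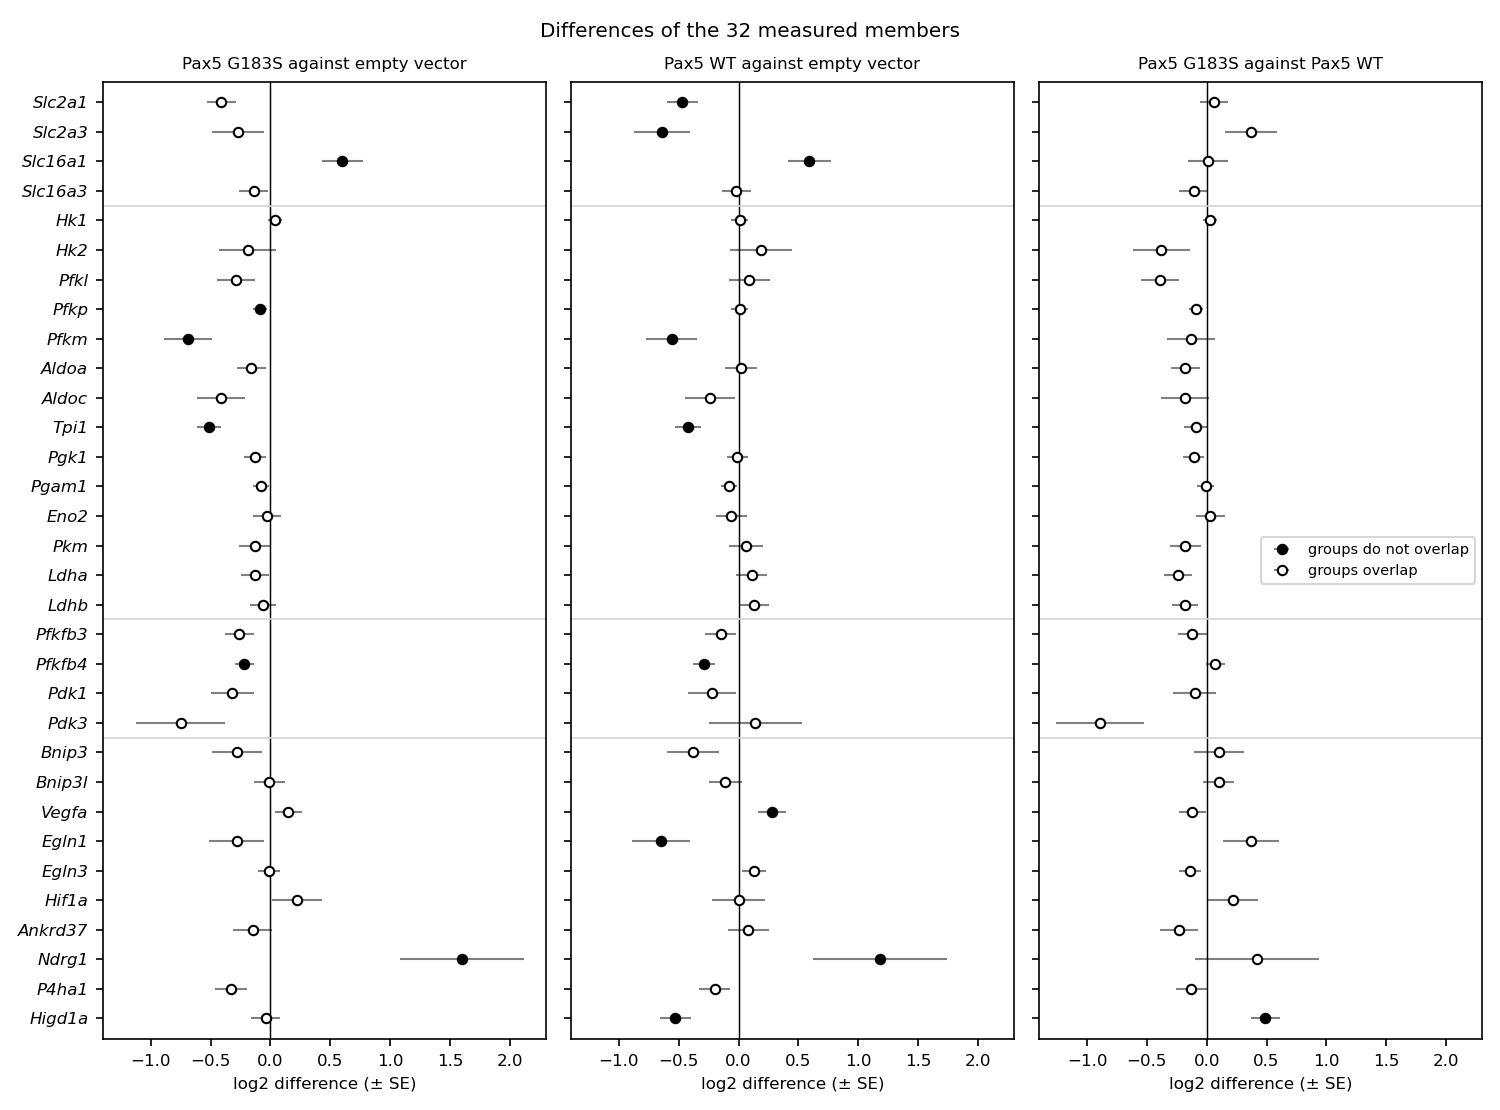
Log2 differences of the 32 members with bars of ± 1 SE from limma, for Pax5 G183S against empty vector (left), Pax5 WT against empty vector (middle) and Pax5 G183S against Pax5 WT (right); filled points are members whose groups do not overlap. Slc16a1 and Ndrg1 lie right of 0 and Tpi1, Pfkm and Pfkfb4 left of it in both comparisons with empty vector.

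Members were also counted by whether the arrays of the groups overlap, which needs no model. For Pax5 G183S against empty vector 2 members were wholly higher (5.02% of all genes) and 4 wholly lower (6.56%), together 18.8% of members and 11.6% of all genes. For Pax5 WT against empty vector 3 were wholly higher (11.5% of all genes) and 7 wholly lower (12.5%), together 31.2% and 24.0%. For Pax5 G183S against Pax5 WT 1 member, Higd1a, was wholly higher (2.33% of all genes) and 0 wholly lower (4.17%), together 3.12% and 6.50%. The members were 5 with a positive and 27 with a negative difference for Pax5 G183S against empty vector, with a median of -0.15. All genes were 9721 positive and 10216 negative there, with a median of -0.00. For Pax5 WT against empty vector the members were 14 positive and 18 negative, with a median of -0.02. All genes were 10748 positive and 9189 negative there, with a median of 0.01.

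Taking each role alone, the 14 core enzymes had 1 positive and 13 negative differences for Pax5 G183S against empty vector, with a median of -0.13, and the regulators 0 and 4, with -0.29. The positive core enzyme was Hk1 on its brightest probe set, with 0.04, and 0.01 for Pax5 WT against empty vector. On the Hk1 probe set that cites RefSeq transcripts these differences were -0.19 and -0.36, so both sign counts depend on that choice. For Pax5 WT against empty vector the core enzymes had 8 positive and 6 negative with a median of 0.01, which turns to 6 and 8 and -0.01 when each array is centred on its median. The mean level over all 32 members was 9.50 ± 0.04 log2 units with Pax5 G183S (SD, n = 4), 9.55 ± 0.02 with Pax5 WT (SD, n = 3) and 9.62 ± 0.04 with empty vector (SD, n = 3). As differences from the empty-vector mean, the core enzyme score was -0.00, -0.33, -0.23 and -0.25 with Pax5 G183S, 0.08, -0.08 and -0.16 with Pax5 WT, and 0.02, -0.08 and 0.06 with empty vector. Pax5 G183S replicate 1 was at the empty-vector level. The other 3 arrays of its group and Pax5 WT replicate 3 were below all empty-vector arrays. Other measures also differed between the arrays, and their relation to the core enzyme score was not tested. The 9 measured of 10 proliferation genes averaged 11.45, 11.05, 10.45 and 10.91 log2 units with Pax5 G183S. They averaged 11.62, 11.55 and 11.29 with Pax5 WT, and 10.52, 11.04 and 11.09 with empty vector. The mean of 6 measured plasma-cell markers was 11.85, 10.70, 10.80 and 11.06 with Pax5 G183S, 11.67, 11.90 and 11.33 with Pax5 WT, and 11.69, 11.77 and 11.92 with empty vector.

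**Figure D4:**
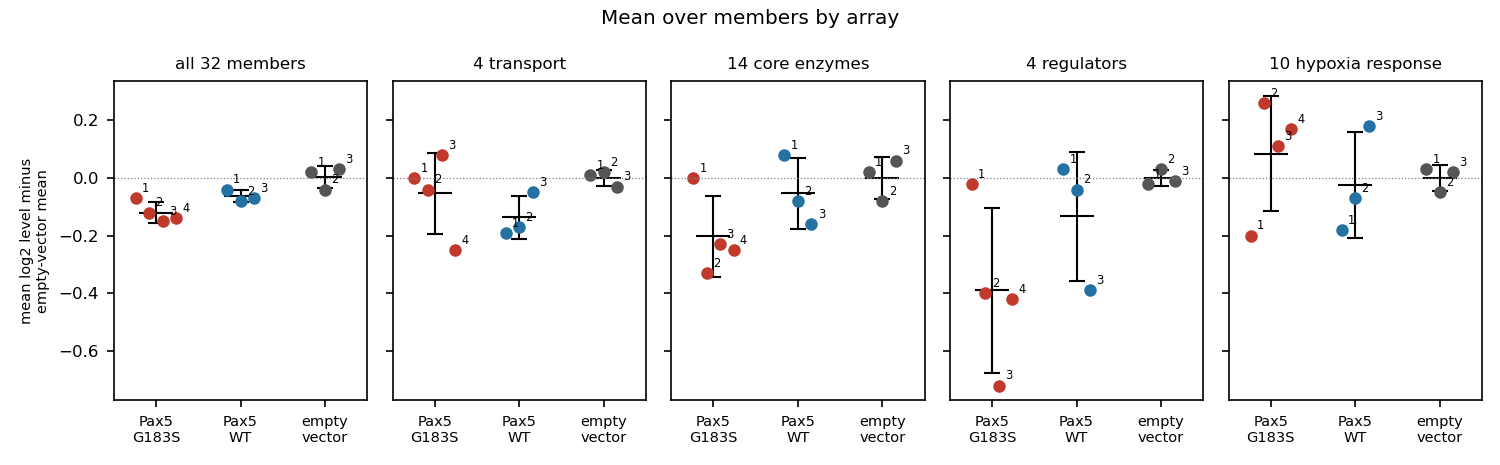
Mean log2 level of the members of each role on every array, as the difference from the empty-vector mean, with Pax5 G183S left, Pax5 WT in the middle and empty vector right; points are arrays and bars the group mean ± SD. In the core enzymes and the regulators Pax5 G183S replicates 2 to 4 and Pax5 WT replicate 3 lie below the empty-vector arrays. Pax5 G183S replicate 1 lies near the empty-vector arrays in both.

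Some genes next to these pathways passed the test, where 0.311% of all genes did so for Pax5 G183S and 1.88% for Pax5 WT against empty vector. The counts are of 1 to 3 genes per list, and no list was tested against that background. Of 21 further glycolytic isozymes and transporters, 0 were higher and 1 lower with Pax5 G183S, and 1 higher and 1 lower with Pax5 WT, against empty vector. Pgm1, the phosphoglucomutase that links glucose and glycogen, fell by 0.71 ± 0.09 log2 units with Pax5 G183S (SE, adjusted p = 0.0163) and by 0.79 ± 0.10 with Pax5 WT (adjusted p = 0.00904). It averaged 9.54 ± 0.16 with Pax5 G183S, 9.46 ± 0.09 with Pax5 WT and 10.25 ± 0.05 with empty vector (SD). Both calls were lost without empty-vector replicate 2 or 3. Galm, a mutarotase of galactose, rose by 0.39 ± 0.08 with Pax5 WT (SE, adjusted p = 0.0454), a call that remained in 1 of 10 fits that left out an array. It was dim in every group, at 5.89 ± 0.05 with Pax5 G183S, 6.04 ± 0.08 with Pax5 WT and 5.65 ± 0.14 with empty vector (SD).

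Of 12 other regulators of HIF, 1 fell in each comparison with empty vector. Hif3a, a HIF alpha subunit that can restrain the others, averaged 6.58 ± 0.18 log2 units with Pax5 G183S, 6.60 ± 0.10 with Pax5 WT and 7.35 ± 0.22 with empty vector (SD), so it was dim with both Pax5 proteins. Its differences were -0.77 ± 0.12 (SE, adjusted p = 0.0391) and -0.75 ± 0.13 (adjusted p = 0.0261), called in 4 and 5 of 10 fits that left out an array. Of 29 other hypoxia-induced genes, 1 fell with Pax5 G183S and 3 with Pax5 WT. Mxi1, an antagonist of Myc-type activation, differed by -0.43 ± 0.07 (SE, adjusted p = 0.0351) and -0.56 ± 0.07 (adjusted p = 0.0106), called in 4 and 8 of 10 such fits. With Pax5 WT, Ddit4, an inhibitor of mTOR signalling, fell by 0.96 ± 0.20 (adjusted p = 0.0467) and Zfp395 by 0.60 ± 0.10 (adjusted p = 0.0216), called in 2 and 6 of 10 fits.

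At the entry to the mitochondria, 1 of 10 measured genes passed: the pyruvate dehydrogenase kinase Pdk2 fell by 0.72 ± 0.12 log2 units with Pax5 WT (SE, adjusted p = 0.026), a call lost without any 1 of the 3 empty-vector arrays, and differed by -0.55 ± 0.12 with Pax5 G183S (adjusted p = 0.0843). Of 15 genes of the TCA cycle none passed, with Sdha at -0.24 (adjusted p = 0.173) for Pax5 G183S and Ogdh at -0.37 (adjusted p = 0.0821) for Pax5 WT against empty vector. None of 6 pentose phosphate genes passed, with Taldo1 at 0.08 (adjusted p = 0.738) and Rpe at 0.12 (adjusted p = 0.459) in those comparisons. Of 9 proliferation genes none passed, with Top2a at 0.31 (adjusted p = 0.635) and Bub1 at 0.91 (adjusted p = 0.126). Their medians were 0.04 with Pax5 G183S and 0.62 with Pax5 WT against empty vector. With Pax5 WT all 9 were higher than with empty vector, as were 10748 of all 19937 genes. Of the 9, 7 were wholly above the empty-vector arrays (11.5% of all genes were). All 9 were lower with Pax5 G183S than with Pax5 WT, with a median of -0.64, as were 11259 of all 19937 genes. Of the 9, 2 were wholly lower (4.17% of all genes were). The list as a whole was not tested. Without limma's moderation of the variances none of the calls in these further lists remained.

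Between Pax5 G183S and Pax5 WT no gene of these lists passed. The genes with the smallest adjusted p were the hexokinase-like Hkdc1 (0.34, adjusted p = 0.484), the HIF hydroxylase Egln2 (-0.27, adjusted p = 0.499), the heme oxygenase Hmox1 (0.49, adjusted p = 0.499) and the mitochondrial pyruvate carrier Mpc1 (0.16, adjusted p = 0.593), each as a log2 difference. For the TCA cycle, pentose phosphate and proliferation lists they were Ogdh (0.21, adjusted p = 0.508), Pgls (-0.46, adjusted p = 0.592) and the mitotic kinase Aurka (-0.67, adjusted p = 0.499).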

How the data were processed

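The values are log2 expression per probe set, as the authors deposited them; per the submitters' processing notes RMA and Partek were used, with no version or role stated. The set of arrays normalized together is not given in the sources used here. Because RMA equalises the distributions of arrays, a change common to most genes cannot show. Depth does not apply to arrays, and their number limits the precision. Scanner files and scan dates were not used here.

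Of 34760 probe sets, 21640 had 1 gene symbol, and the one with the highest mean per gene left 19937 genes. limma 3.58.1 in R 4.3.3 was fitted to all 10 arrays with 1 coefficient per group, empirical Bayes moderation and Benjamini-Hochberg adjustment over the 19937 genes, two-sided, with adjusted p under 0.05 called. The fit was tested on simulated data. All 35 members are named, with Pax5, and from each further list the called genes or else the gene with the smallest adjusted p in a comparison. The members and lists were chosen with earlier results of these data known. Alternatives changed array scaling, the filter on dim probe sets, the probe set per gene, array weights, moderation, the samples fitted, the replicate block and each array. Promoters came from RefSeq, GRCm38.p6. Tables and figures used Python 3.11.15, pandas 2.3.3, numpy 2.4.6 and matplotlib 3.10.9.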

Additional observations from a re-analysis of the deposited data

Results flagged for a closer look

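In the 4 Pax5 G183S arrays, replicate 1 lay far from the other 3 for 2 of the 32 members. Its gap to the nearest other array was, as a share of the group's range, above Dixon's 95% critical value for Egln1, which read 9.15 log2 units there against 10.08 to 10.10 in the other 3, and for Ndrg1, which read 8.36 against 10.08 to 10.32. Such a gap turns up by chance in about 5% of groups tested, and 32 members were tested on the same arrays. Without this replicate the Ndrg1 difference from empty vector and the Egln1 difference from Pax5 WT passed limma's adjusted p of 0.05. Leaving out other arrays gave these differences adjusted p-values of up to 0.587 and 0.866.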

How the results depend on the processing

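No result changed direction while called. With array weights, in which Pax5 G183S replicate 1 had 0.335, 6 members were called for Pax5 G183S against empty vector, 5 for Pax5 WT against empty vector and 3 for Pax5 G183S against Pax5 WT, and over all genes 1449, 2576 and 2752, against 62, 374 and 0. Without moderation the counts over all genes were 6, 4 and 1. With only the 2 groups compared, Pax5 WT against empty vector gave 1 member (Higd1a) and 587 genes. Leaving out an array gave 0 to 2, 0 to 3 and 0 to 2 members and 8 to 295, 6 to 1033 and 0 to 1113 genes. The members came from leaving out Pax5 G183S replicate 1, 3 or 4, and the highest gene counts from leaving out Pax5 G183S replicate 1. The lowest counts in the 2 comparisons with empty vector came from leaving out empty-vector replicate 3. Centring each array turned the split of Pax5 WT calls to 102 higher and 246 lower, against 176 and 198. The cause of these changes was not tested. The mean score difference for Pax5 G183S against empty vector was -0.12. It was 0.00 when each array was scored by the median level of the members, and -0.20 over core enzymes. For Pax5 G183S against Pax5 WT these values were -0.05, 0.04 and -0.15. A median level per array is not the median of the members' own differences. That median was -0.15 in the first of these comparisons and -0.11 in the second.

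The labels do not say whether replicate numbers pair the samples, and the deviations of same-numbered arrays gave a mixed picture. Between Pax5 WT and Pax5 G183S they correlated at 0.51 for replicate 1 and 0.46 for replicate 3, the highest values of any pair, but at -0.16 for replicate 2. Same-numbered pairs with an empty-vector array correlated at -0.16 to 0.11. The main fit used no pairing. With a replicate block the members called were 0, 1 (Higd1a) and 0 in the same order of comparisons, and the genes 10, 228 and 2.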
